A study of Mus musculus with 3 samples.

Results

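T cells signal to other leukocytes through chemokines, small secreted proteins that attract cells carrying the matching receptor. The 6 genes described here, Ccl1, Ccl3, Ccl4, Ccl5, Xcl1 and Cxcl10, were listed by name, and all 6 were present among the 18029 genes of the count table. They were followed in splenic donor T cells of an allogeneic bone marrow transplant model of graft-versus-host disease (GVHD), in which irradiated B6D2F1 mice received B6 bone marrow, B6 T cells and TEa cells, which are CD4+ T cells with a transgenic T cell receptor (TCR). Recipients were dosed daily from day 0 to day 6 with saline or with cyclosporine A (CSA), of which the low dose was 5 mg/kg and the high dose 50 mg/kg, and donor T cells were sorted from the spleen on day 7 as CD4+ and CD8+ fractions. Each group had 6 mice, pooled by 2 into 3 hashtagged pools, and both fractions of a group were mixed 1:1 for a single droplet capture, so capture and treatment cannot be told apart. All groups carried a graft, so there was no group without alloreactivity. Levels were measured in 10091 CD4+ T cells, with the TEa cells left out, and 10833 CD8+ T cells.

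CSA binds cyclophilin and blocks calcineurin, the phosphatase that lets the transcription factor NFAT enter the nucleus after TCR engagement. Ccl1 is the ligand of CCR8. Ccl3 and Ccl4 (MIP-1α and MIP-1β) and Ccl5 (RANTES) are inflammatory CC chemokines that attract monocytes and activated T cells. Xcl1 (lymphotactin) attracts dendritic cells that carry XCR1, and Cxcl10 is an interferon-induced ligand of CXCR3. Activated T cells and NK cells are known sources of the CCL and XCL members, whereas Cxcl10 is made by many cell types that respond to interferon.

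In the GENCODE M21 annotation of GRCm38 (mm10) all 6 members are protein-coding genes. Ccl5 (chr11:83525778-83530518, minus strand), Ccl3 (chr11:83647844-83649355, minus strand) and Ccl4 (chr11:83662584-83664683, plus strand) lie in a cluster of CC chemokine genes, with 13228 bases between Ccl3 and Ccl4. Ccl1 is on the same chromosome, and the transcript listed first spans chr11:82176659-82179812 on the minus strand. Xcl1 (chr1:164931644-164935527) and Cxcl10 (chr5:92346638-92348889), both on the minus strand, lie elsewhere.

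Promoters of 4 of the 6 members were available from RefSeq (GRCm38.p6). The 250 bases upstream of the start are shown because calcineurin acts through NFAT, whose core motif GGAAA was searched on both strands. All 4 are read on the minus strand, from chr11:82179813-82180062 for Ccl1, chr11:83649379-83649628 for Ccl3, chr1:164935523-164935772 for Xcl1 and chr5:92348890-92349139 for Cxcl10. Capitals mark GGAAA on either strand in the first 3 sequences, and the interferon-type repeat (GAAA, any 2 bases, GAAA) and the NF-kB consensus in Cxcl10.
Ccl1: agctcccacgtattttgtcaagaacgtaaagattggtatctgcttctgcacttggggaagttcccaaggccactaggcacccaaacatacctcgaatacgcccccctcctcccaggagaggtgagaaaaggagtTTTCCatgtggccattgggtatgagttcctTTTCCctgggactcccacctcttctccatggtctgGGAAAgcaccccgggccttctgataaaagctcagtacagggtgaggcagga
Ccl3: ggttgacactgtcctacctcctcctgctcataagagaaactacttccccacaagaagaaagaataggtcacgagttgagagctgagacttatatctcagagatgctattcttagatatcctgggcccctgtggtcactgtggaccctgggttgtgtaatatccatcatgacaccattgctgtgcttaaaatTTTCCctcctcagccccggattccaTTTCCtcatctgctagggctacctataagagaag
Xcl1: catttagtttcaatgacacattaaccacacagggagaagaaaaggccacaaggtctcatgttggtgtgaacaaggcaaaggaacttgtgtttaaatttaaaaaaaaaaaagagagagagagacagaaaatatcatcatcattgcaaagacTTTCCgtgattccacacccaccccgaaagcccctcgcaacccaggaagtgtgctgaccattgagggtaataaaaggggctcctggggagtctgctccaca
Cxcl10: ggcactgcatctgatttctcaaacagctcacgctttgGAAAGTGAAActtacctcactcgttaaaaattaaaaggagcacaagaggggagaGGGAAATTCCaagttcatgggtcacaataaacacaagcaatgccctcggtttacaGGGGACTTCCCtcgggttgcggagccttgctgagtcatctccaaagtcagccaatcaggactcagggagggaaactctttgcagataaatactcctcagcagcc
The core motif matched 3 times in the Ccl1 window, 2 times in the Ccl3 window, 1 time in the Xcl1 window and 3 times in the Cxcl10 window. Such matches are common: 55.6% of 27018 RefSeq promoter windows of this length held at least 1, and 6.5% held at least 3. This repeat was found 1 time in Cxcl10 and in 3.04% of all windows. The NF-kB consensus matched 3 times in Cxcl10, 2 times in Ccl1 and in 7.01% of all windows, and the AP-1 motif TGANTCA matched in Cxcl10 and in 6.87% of all windows. Overlapping matches were counted separately. The 2 NF-kB matches in Ccl1 overlapped within 1 stretch, as did 2 of the 3 in Cxcl10. In Cxcl10, 2 of the 3 GGAAA matches shared bases with another of these motifs, and in the other 3 genes 0 did. A match describes the letters of the window and is not evidence of binding.

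The CD4+ pools held 3994968 to 7592334 unique molecular identifiers (UMIs, each standing for 1 captured RNA molecule) and the CD8+ pools 4392100 to 11454636. Median UMIs per cell were 3097, 4396 and 5980 in CD4+ T cells and 4108, 6122 and 7183 in CD8+ T cells for saline, 5 mg/kg and 50 mg/kg, so depth rose with the dose. Cd3e was at 949 to 1110 UMIs scaled to the library total (CPM) in the CD4+ pools and 994 to 1134 CPM in the CD8+ pools. Cd8a was at 0 in every CD4+ pool and Cd4 was at 0 in every CD8+ pool. The summed level of 7 B cell markers was higher at 50 mg/kg (545 to 672 CPM in CD8+ and 257 to 295 CPM in CD4+ pools) than with saline (160 to 171 and 175 to 190 CPM). Erythroid markers, 6 in all, summed to 24.6 to 48.7 CPM in CD8+ pools at 50 mg/kg against 4.15 to 17.9 CPM with saline, and to 27.7 to 37.0 against 3.21 to 14.8 CPM in CD4+ pools. The ranges for 13 myeloid markers overlapped between the doses (156 to 326 CPM in CD4+, 200 to 309 CPM in CD8+ pools), as did those for 7 NK cell markers (9.32 to 36.9 and 19.99 to 41.6 CPM). The 8 dendritic cell markers summed to 105 to 176 CPM in CD4+ pools, with overlap between the doses. In CD8+ pools they summed to 189.3 to 230.6 CPM with saline, 115.0 to 186.5 at 5 mg/kg and 145.1 to 188.7 at 50 mg/kg. The CD8+ saline pools thus lay above those of both doses. Flt3, Clec9a and Siglech were at 0 in CD4+ pools and Flt3 was at 0 in CD8+ pools. The part of these other cell types in the chemokine levels was not tested. Between 0 and 21.5% of the cells of a pool had more counts of another pool's hashtag than of their own, and 218 of 20986 distinct cell barcodes occurred in more than 1 capture.

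The members were compared on UMIs summed per pool. Values are CPM after TMM scaling (a scaling that centres the log ratios of most genes between libraries on 0), and p-values are from edgeR's quasi-likelihood test adjusted over all genes tested by the Benjamini-Hochberg method, called at 0.05. All 6 members passed the filter on low counts in both lineages. Among CD4+ T cells at 5 mg/kg, 1 of the 6 members was called against saline, Ccl1, where 51.8% of all genes tested were called. Under 50 mg/kg CSA, 3 of 6 were called in CD4+ T cells (Ccl5 higher, Ccl1 and Xcl1 lower), against 70.5% of all genes. Among CD8+ T cells 5 of 6 were called at 5 mg/kg, all higher, against 60.2% of all genes, and 6 of 6 at 50 mg/kg (Ccl3, Ccl4 and Ccl5 higher, Ccl1, Xcl1 and Cxcl10 lower), against 74% of all genes. Between 50 and 5 mg/kg, 3 of 6 members were called in CD4+ and 4 of 6 in CD8+ T cells, where 41.2% and 41% of all genes were. With 6 genes these counts say little against such backgrounds, and the sizes and directions are given below member by member. Summed over a pool, fewer expressing cells and less RNA per cell cannot be told apart.

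Without TMM, scaling to library size alone shifted the median of all genes in CD4+ T cells by -0.37 (5 mg/kg) and -0.45 (50 mg/kg) on the log2 scale, and in CD8+ T cells by -0.43 and -0.53. With that scaling the split of higher and lower calls in CD4+ T cells went from 2760 and 2709 to 927 and 5717 at 5 mg/kg, and from 3669 and 3784 to 1600 and 6237 at 50 mg/kg. For CD8+ T cells it went from 3241 and 3282 to 1180 and 6269 at 5 mg/kg, and from 4021 and 4003 to 1691 and 6793 at 50 mg/kg. Changes of the members below are therefore relative to the bulk of genes, and calls that depend on this choice are named. The sign of some differences that were not called also depends on it. Scaled to library size alone, the CD4+ log2 ratio of Ccl4 to saline was -0.13 at 5 mg/kg and -0.21 at 50 mg/kg. That of CD4+ Xcl1 was -0.08 at 5 mg/kg. With TMM these differences were positive, as given below.

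Ccl1 had opposite responses to the doses in CD4+ T cells. Its level in pools 1, 2 and 3 was 184, 157 and 123 CPM under saline, 357, 328 and 478 CPM at 5 mg/kg, and 2.75, 10.995 and 0.149 CPM at 50 mg/kg. The 3 groups did not overlap, with every 5 mg/kg pool above and every 50 mg/kg pool below the saline pools. The rise at 5 mg/kg (adjusted p = 9.4e-07, edgeR) was not called by DESeq2, which gave a log2 change of 1.33. The fitted change at 50 mg/kg was called whichever pool was left out, and was -6.79 without pool 2 and -4.46 without pool 3 of that group. Over the 50 mg/kg group 83 Ccl1 UMIs were counted in 4 of 3064 cells, and 66 of them came from a single cell of pool 2. Pool 1 had 2 Ccl1 cells, with 11 and 5 UMIs, and pool 3 had 1 cell with 1 UMI. As a ratio of summed UMIs, Ccl1 was 45.9-fold lower at 50 mg/kg than with saline (95% interval 36.9 to 57.8, counting error only).

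In CD8+ T cells Ccl1 was at 23.9, 17.9 and 15.3 CPM in the saline pools, 19.2, 58.4 and 100.3 CPM at 5 mg/kg, and 0.139, 0 and 0.306 CPM at 50 mg/kg. Pool 1 at 5 mg/kg lay within the saline range, and the other pools of that dose lay above it, while the 50 mg/kg pools were all below. The log2 change was 1.74 (SE 0.33, adjusted p = 0.00018, n = 3 against 3, edgeR) at 5 mg/kg and 1.09 without pool 3. With the high dose, 4 UMIs in 2 of 3532 cells were counted, where the saline group had 521, a ratio of 166 (64.6 to 613). The lower level at 50 mg/kg was called (-6.72, SE 0.93, adjusted p = 3.4e-06, edgeR; -7.80 without pool 3 of that group, which held 3 of the 4 UMIs).

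Xcl1 was low in both lineages at 50 mg/kg. For CD4+ T cells it was at 34.1, 30.2 and 31.4 CPM under saline, 31.7, 30.0 and 54.7 CPM at 5 mg/kg, and 2.41, 1.50 and 1.19 CPM at 50 mg/kg. Saline and 5 mg/kg overlapped, and the log2 difference of 0.33 (95% interval 0.00 to 0.66, adjusted p = 0.088, edgeR) was not called, although it was without pool 1 (0.45) or pool 2 (0.49) of the 5 mg/kg group. All 50 mg/kg pools were below every other pool, with a log2 change of -4.23 (SE 0.28, adjusted p = 2.2e-11, edgeR). The 31 UMIs of that group came from 23 cells, with at most 2 UMIs in any cell.

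Among CD8+ T cells Xcl1 was at 61.5, 50.8 and 68.1 CPM with saline and 9.003, 3.58 and 11.1 CPM at 50 mg/kg, a log2 change of -2.88 (SE 0.52, adjusted p = 7.3e-05, edgeR). The 5 mg/kg pools were spread more widely, at 39.9, 146 and 254 CPM, with pool 1 below and the other pools above the saline range. The log2 change at 5 mg/kg was 1.37 (SE 0.34, adjusted p = 0.0022, edgeR), and it was no longer called without pool 3 (0.68) or with DESeq2 (1.28). Pool 3 at 5 mg/kg was also the pool with the highest share of cells in which another hashtag was stronger, 21.5%. Under 50 mg/kg CSA 201 UMIs came from 42 cells, and the highest cell of pool 1 held 41 of its pool's 65. Between 50 and 5 mg/kg Xcl1 had log2 changes of -4.25 (SE 0.48) in CD8+ and -4.56 (SE 0.28) in CD4+ T cells, and the CD8+ value was -3.56 without pool 3 of the 5 mg/kg group.

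Ccl3 and Ccl4 did not share the loss of Ccl1 and Xcl1. In CD4+ T cells Ccl3 was at 204, 76.7 and 111 CPM in the saline pools, 101, 91.4 and 144 CPM at 5 mg/kg, and 67.9, 80.6 and 188 CPM at 50 mg/kg. Ccl4 was at 332, 199 and 249 CPM, then 268, 259.9 and 387 CPM, then 149, 219 and 546 CPM. The groups overlapped for both genes, and no difference was called. The log2 difference at 50 mg/kg was -0.16 (95% interval -0.77 to 0.45) for Ccl3 and 0.25 (-0.34 to 0.84) for Ccl4. Pool 3 at 50 mg/kg set these values. In that pool the highest cell held 636 of 1261 Ccl3 UMIs, and the highest cell for Ccl4 held 1409 of 3661. Without it both genes were called lower, Ccl3 at -0.76 and Ccl4 at -0.48. Without pool 1 of that group Ccl4 was called higher, at 0.58. Under 5 mg/kg CSA the differences were -0.16 (-0.79 to 0.48) and 0.25 (-0.35 to 0.86).

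For CD8+ T cells Ccl3 was at 119, 100.1 and 108 CPM under saline, 89.1, 190.1 and 200.5 CPM at 5 mg/kg, and 163, 156 and 195 CPM at 50 mg/kg. Ccl4 was at 261, 211 and 236 CPM, then 218, 470.2 and 602 CPM, then 546, 488 and 618 CPM. Every 50 mg/kg pool was above every saline pool for both genes, while pool 1 at 5 mg/kg was below the saline range for Ccl3 and within it for Ccl4. The log2 change of Ccl4 was 0.89 (SE 0.21, adjusted p = 0.0013, edgeR) at 5 mg/kg and 1.22 (SE 0.21, adjusted p = 3.6e-05) at 50 mg/kg. That of Ccl3 was 0.59 (SE 0.18, adjusted p = 0.0074) and 0.66 (SE 0.17, adjusted p = 0.0021). With library size scaling Ccl3 was not called at either dose (0.17 and 0.13), and Ccl4 was called at 50 mg/kg (0.69) but not at 5 mg/kg (0.47). With the low dose Ccl3 was also not called without pool 2 (0.47) or pool 3 (0.38) of that group, outside the cycling clusters (0.51) or with DESeq2 (0.55). Neither gene was called between 50 and 5 mg/kg, with log2 differences of 0.07 (-0.29 to 0.43) for Ccl3 and 0.33 (-0.10 to 0.76) for Ccl4, although Ccl4 was called without pool 3 of the 5 mg/kg group (0.66).

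Ccl5 was higher at 50 mg/kg in both lineages. In CD8+ T cells it was at 1745, 1719 and 1786 CPM in the saline pools, 3872, 3926 and 3907 CPM at 5 mg/kg, and 14356, 15398 and 12583 CPM at 50 mg/kg. The groups were far apart relative to their spread. The log2 change was 1.16 (SE 0.05, adjusted p = 2.0e-12, edgeR) at 5 mg/kg and 3.01 (SE 0.05, adjusted p = 2.1e-17) at 50 mg/kg.

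Among CD4+ T cells Ccl5 was at 857, 797 and 824 CPM under saline, 625, 997 and 898 CPM at 5 mg/kg, and 3391, 3062 and 2868 CPM at 50 mg/kg. The 5 mg/kg pools lay on both sides of the saline pools, and the log2 difference was 0.03 (-0.18 to 0.23, adjusted p = 0.83, edgeR). That value depended on the scaling: with library size it was -0.33 and called, and without pool 1 of the 5 mg/kg group it was 0.20 and called. All 50 mg/kg pools were above the rest, with a log2 change of 1.91 (SE 0.10, adjusted p = 2.6e-13).

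Cxcl10 was at 21.1, 12.1 and 11.4 CPM in CD4+ T cells with saline, 5.15, 21.2 and 12.4 CPM at 5 mg/kg, and 16.5, 5.16 and 9.24 CPM at 50 mg/kg. The groups overlapped, and the log2 differences of -0.13 (-0.84 to 0.58) and -0.50 (-1.20 to 0.21) were not called. With the high dose Cxcl10 was called lower with library size scaling (-0.93) or without pool 1 of that group (-0.98). Among CD8+ T cells it was at 6.70, 4.22 and 3.64 CPM in the saline pools, 1.97, 3.43 and 3.18 CPM at 5 mg/kg, and 1.52, 0.398 and 1.33 CPM at 50 mg/kg. The pools of each dose lay below those of saline without overlap. The fall at 50 mg/kg was called (-2.11, SE 0.35, adjusted p = 3.0e-05, edgeR), and the difference at 5 mg/kg was not (-0.69, -1.34 to -0.04, adjusted p = 0.064), although it was with library size scaling (-1.11), outside the cycling clusters (-0.999) and without saline pool 3 (-0.87). Between 50 and 5 mg/kg Cxcl10 was called lower in CD8+ T cells (-1.42, SE 0.41, adjusted p = 0.011, edgeR), but not outside the cycling clusters (-1.30), without pool 3 of the 5 mg/kg group (-1.33), or in cells whose strongest hashtag was that of their pool (-0.98). These CD8+ levels rest on few molecules, with 132, 52 and 27 UMIs in the 3 groups.

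**Figure D1:**
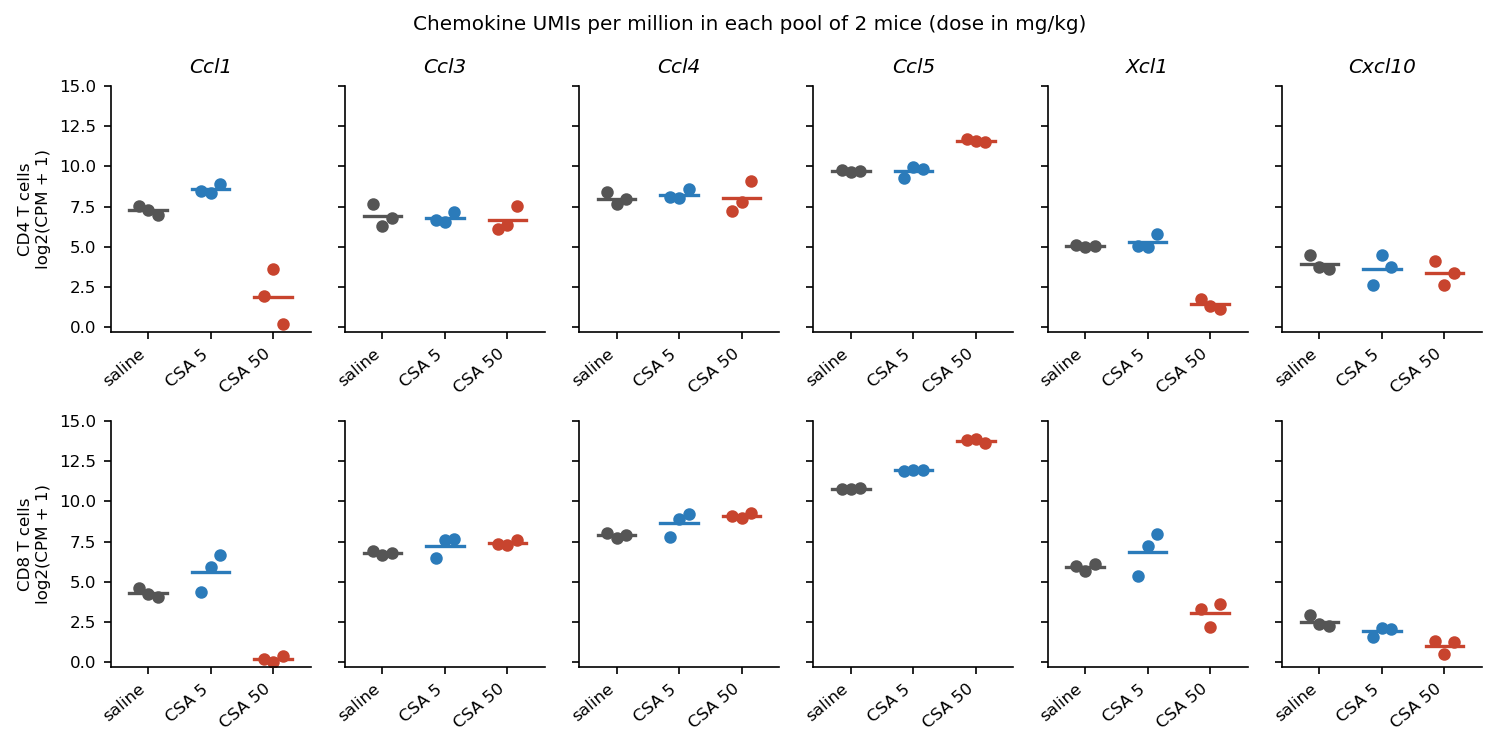
Level of each member as log2(CPM + 1) after TMM scaling (y axis) in each of the 3 pools of saline, CSA 5 mg/kg and CSA 50 mg/kg (x axis; points from left to right are pools 1 to 3, bars are group means), with CD4+ T cells above and CD8+ T cells below. Ccl1 and Xcl1 are lowest at 50 mg/kg in both lineages, Ccl5 is highest there, and pool 3 at 50 mg/kg stands above the others of its group for CD4+ Ccl3 (188 CPM) and Ccl4 (546 CPM). In that pool the highest cell held 636 of 1261 CD4+ Ccl3 UMIs, and the highest cell for Ccl4 held 1409 of 3661.

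The lineages of saline pools were then compared, with the pool as a block because both lineages of a pool came from the same mice. Of the 6 members 4 were called between CD8+ and CD4+ T cells, where 42.8% of all genes were. Ccl1 was lower in CD8+ T cells (log2 difference -2.96, SE 0.06), as was Cxcl10 (-1.54, SE 0.16), and Ccl5 (1.15, SE 0.03) and Xcl1 (0.98, SE 0.07) were higher. Ccl3 (-0.12, -0.30 to 0.07) and Ccl4 (-0.05, -0.14 to 0.04) were not called. Pool 1 weighed on Ccl3, which was called higher in CD8+ T cells without it (0.22), whereas without pool 2 Ccl3 (-0.35) and Ccl4 (-0.15) were called lower.

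Whether the response to CSA differed between the lineages was tested as the interaction of lineage and dose in all 9 pools. Given 5 mg/kg, the change was larger in CD8+ T cells for Ccl5 (log2 difference of changes 1.12, SE 0.09, adjusted p = 6.7e-08, edgeR) and Xcl1 (0.98, SE 0.24, adjusted p = 0.021), where 3.57% of all genes were called. Ccl1 (0.33, -0.19 to 0.85), Ccl3 (0.65, 0.12 to 1.18), Ccl4 (0.55, 0.02 to 1.09) and Cxcl10 (-0.58, -1.16 to -0.01) were not called, although Ccl1 was without pool 1 of the 5 mg/kg group (0.65) and Ccl4 without pool 3 of the 50 mg/kg group (0.56). The Xcl1 difference was not called without pool 2 (0.83) or 3 (0.65) of the 5 mg/kg group or pool 1 (0.95) or 2 (0.90) of the saline group. Under the high dose 4 of 6 members were called, where 19.4% of all genes were. Ccl5 (1.07, SE 0.09), Ccl4 (1.07, SE 0.25) and Ccl3 (0.80, SE 0.25) had the more positive change in CD8+ T cells, and Cxcl10 (-1.60, SE 0.32) the more negative. The Ccl3 difference was not called without pool 1 (0.57) or 2 (0.68) of the 50 mg/kg group or without pool 1 of the saline group (0.47). For Ccl1 (-1.56, -4.53 to 1.41) and Xcl1 (1.31, 0.13 to 2.48) at 50 mg/kg no difference between the lineages was called, although Xcl1 was called without pool 1 of the 5 mg/kg group (1.30).

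The levels were next resolved by the study's clusters, 13 of CD4+ and 9 of CD8+ T cells, as CPM of a cluster's UMIs in each pool with at least 10 cells. Since the clusters were built from the same counts, levels between clusters are a description, and the study itself marks CD4 C7 and CD8 C8 by Ccl3 and Ccl4. The study calls C7 cytotoxic and C8 exhausted. In the deposited counts CD8 C8 was highest among the CD8+ clusters for Tnfrsf9 (402 CPM) and Nr4a2 (182 CPM), while Pdcd1 and Havcr2 were highest in the cycling cluster C4 (494 and 362 CPM). The naive clusters, CD4 C9 and CD8 C7, were highest for Ccr7 and Lef1 in their lineages and served as a guide to free RNA.

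Ccl1 was concentrated in CD4 C7, which held 4.41% of the CD4+ T cells and 63.6% of the Ccl1 UMIs with saline, and 5.50% and 80.5% at 5 mg/kg. Its level in C7 was 1906, 1890.0 and 1806 CPM under saline, 3410.0, 2592 and 4044 CPM at 5 mg/kg and 37.4, 189 and 0 CPM at 50 mg/kg. The next cluster with saline was the cycling cluster C6 at 183 ± 107 CPM (SD, n = 3), with no overlap. In the CD8+ lineage C8 held 26.9% of the Ccl1 UMIs with saline and 84.8% at 5 mg/kg, from 2.33% and 2.12% of the cells. Over single pools this share was 22.5% to 32.1% with saline and 11.5% to 92.3% at 5 mg/kg, so at least 1 low-dose pool lay below the saline pools.

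The same clusters held much of Ccl3 and Ccl4. For saline, 5 mg/kg and 50 mg/kg, CD4 C7 accounted for 50.5%, 52.4% and 62.3% of the Ccl3 UMIs and 42.2%, 60.2% and 58.4% of the Ccl4 UMIs. CD8 C8 accounted for 36.3%, 42.3% and 39.8% of Ccl3 and for 40.8%, 51.0% and 44.9% of Ccl4. Of the CD8+ Xcl1 UMIs C8 held 48.1%, 77.8% and 70.7%, with single pools at 40.5% to 60.4%, 12.96% to 88.1% and 18.5% to 92.3%, so the shares at both doses reached below the saline range.

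Ccl5 had a different distribution. With saline its highest level among the CD8+ clusters was in C1, the cluster of Cd226lo effector cells (6881 ± 47.5 CPM), followed by C0, the Cd226hi effector cells (3312 ± 180 CPM). At 5 and 50 mg/kg C0 led, at 15470 ± 2752 and 29100 ± 1389 CPM. In the CD4+ lineage C0, the Cd226hi effector cells, had the highest mean at each dose, at 1541 ± 74.4, 2684 ± 1062 and 7799 ± 480 CPM. With saline its pools (1482 to 1625 CPM) overlapped those of C1 (1357 to 1527 CPM). The naive clusters also held Ccl5 UMIs, at 1100 ± 15.7, 303 ± 61.2 and 621 ± 495 CPM in CD4 C9 and 2002 ± 526, 2123 ± 487 and 4437 ± 1906 CPM in CD8 C7. Cxcl10 had its highest mean in CD4 C10, the cluster marked by Isg15, Ifit1 and Ifit3. There it was at 402, 49.4 and 82.8 CPM in the saline pools, 70.5, 60.2 and 167 CPM at 5 mg/kg and 68.6, 34.9 and 96.0 CPM at 50 mg/kg. These ranges overlapped between the doses, and pool 1 with saline (14 cells) was highest. At each dose the C10 pools also overlapped those of C7, which was at 113, 91.7 and 8.34 CPM with saline. With saline C7 held 27.9% of the CD4+ Cxcl10 UMIs and C10 held 10.1%.

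**Figure D2:**
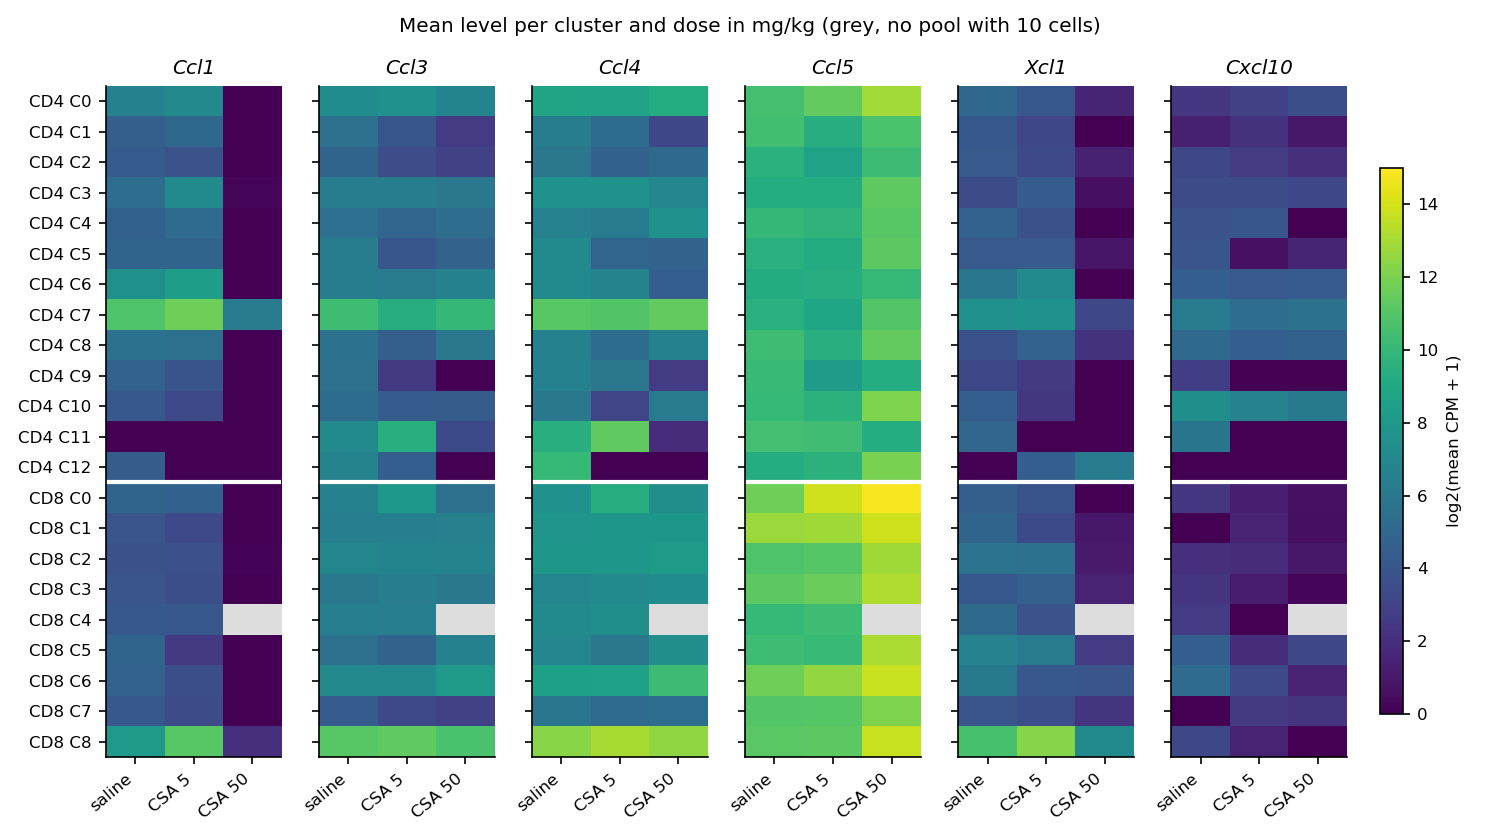
Mean level of each member, as log2(mean CPM + 1) on the colour scale, in each cluster (rows, CD4 C0 to C12 above the white line and CD8 C0 to C8 below it) for saline, CSA 5 mg/kg and CSA 50 mg/kg (columns), with grey where no pool had 10 cells. Over all rows Ccl1, Ccl3, Ccl4 and Xcl1 are brightest in CD4 C7 or CD8 C8, while Ccl5 is bright in many clusters and reaches 29100 CPM in CD8 C0 at 50 mg/kg. Among the CD4 rows, clusters with 1 pool of 11 cells stand above C7 in places. These are C11 at 5 mg/kg for Ccl3 (696 CPM) and Ccl4 (2592 CPM), and C12 at 50 mg/kg for Xcl1 (69.8 CPM).

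Within CD4 C7 (48 to 71 cells per pool with saline, 45 to 72 at 5 mg/kg and 40 to 54 at 50 mg/kg), the doses were compared over pools. Under the low dose Ccl1 was the 1 member called (1.14, SE 0.26, edgeR), against 24.7% of all genes, and it was not called with DESeq2 (1.15). In C7 other members were called when 1 pool was left out: Xcl1 at 1.03 without pool 2 and -1.08 without pool 3 of the 5 mg/kg group, Ccl5 at -1.18 without pool 3, Cxcl10 at -2.74 without pool 2, and Ccl3 at -1.12 without saline pool 2. At 50 mg/kg, where 36.6% of all genes were called, Ccl1 (-4.45, SE 0.38) and Xcl1 (-4.21, SE 0.85) fell and Ccl5 (1.77, SE 0.30) rose. The Ccl1 change in C7 moved to -6.31 without pool 2 of the 50 mg/kg group, which held the cell with 66 UMIs, and to -3.77 without pool 3, and that of Xcl1 to -5.75 without pool 1 and -3.54 without pool 3. Ccl4 in C7 was at 2222, 1156 and 3332 CPM with saline and 1029, 1389 and 5531 CPM at 50 mg/kg, and Ccl3 at 1999, 357 and 1531 CPM and then 470.0, 508 and 2125 CPM. The groups overlapped, and neither was called (Ccl4 0.58, -0.21 to 1.37; Ccl3 0.03, -0.84 to 0.90). Pool 3 at 50 mg/kg was again the highest, and without it Ccl3 was called lower (-1.04), while Ccl4 was called higher without pool 1 (1.02). In C7 of pool 3 the highest cell held 636 of 955 Ccl3 UMIs, and the highest cell for Ccl4 held 1409 of 2486.

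Within CD8 C8, 42, 35 and 30 cells were present with saline, 9, 18 and 33 at 5 mg/kg and 41, 46 and 37 at 50 mg/kg, so the 5 mg/kg fit used pools 2 and 3. Xcl1 was at 1663, 1209 and 1897 CPM with saline, 3400.0 and 6356 CPM in those 5 mg/kg pools, and 173, 12.9 and 234 CPM at 50 mg/kg. Ccl1 was at 344, 259.6 and 214 CPM under saline, 1745 and 2630.0 CPM at 5 mg/kg, and 0, 0 and 9.13 CPM at 50 mg/kg. Over the pools that were fitted, the groups did not overlap for either gene. Pool 1 at 5 mg/kg, with 9 cells, lay below every saline pool for Ccl1 (183.5 CPM), Xcl1 (428 CPM), Ccl3 (1611 CPM) and Ccl4 (2631 CPM), so the rises that follow are those of pools 2 and 3 alone. With CSA at 5 mg/kg Ccl1 (3.34, SE 0.20), Xcl1 (1.96, SE 0.29), Ccl4 (1.04, SE 0.19) and Ccl3 (0.58, SE 0.18) were called higher with edgeR, against 17.5% of all genes. Ccl5 was not called (0.42, 0.08 to 0.77), although it was without pool 2 (0.85). The Ccl4 and Ccl3 calls were lost without pool 3 (0.41 and 0.12), and those of Xcl1 (1.95) and Ccl3 (0.57) with DESeq2, and Ccl3 was also not called with library size scaling (0.25) or without saline pool 1 (0.54) or 2 (0.54).

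At 50 mg/kg in C8, where 39.6% of all genes were called, Xcl1 fell (-3.14, SE 0.35; -3.75 without pool 3 of that group) and Ccl5 rose (3.01, SE 0.15). Ccl1 was counted in 3 UMIs there against 140 with saline, a ratio of 97.8 (32.8 to 480). Ccl4 stayed at 5288, 5025 and 7204 CPM against 5725, 4601 and 5405 CPM with saline, and Ccl3 at 1533, 1229 and 2109 CPM against 2110.0, 2082 and 2313 CPM. The ranges overlapped for both genes. The Ccl4 difference of 0.56 (SE 0.17, adjusted p = 0.0096, edgeR) was called, but not with library size scaling (0.15), with DESeq2 (0.56), or without pool 3 of the 50 mg/kg group (0.36) or pool 2 of the saline group (0.47). Ccl3 differed by -0.01 (-0.35 to 0.33), and was called lower with library size scaling (-0.42).

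CD8 C0, the cluster of Cd226hi effector cells, had its highest Ccl3 and Ccl4 levels at the low dose. It held 295, 304 and 341 cells with saline, 61, 72 and 77 at 5 mg/kg and 215, 226 and 119 at 50 mg/kg. Ccl3 was at 114, 77.3 and 92.2 CPM in the saline pools, 210.4, 319.9 and 233 CPM at 5 mg/kg and 44.1, 52.5 and 41.0 CPM at 50 mg/kg. Ccl4 was at 179, 154 and 240.2 CPM, then 462, 908 and 602 CPM, then 160.3, 176 and 181 CPM. For Ccl3 the 3 groups did not overlap, with 5 mg/kg highest and 50 mg/kg lowest, and for Ccl4 only the 5 mg/kg pools stood apart. At 5 mg/kg Ccl3 (1.79, SE 0.16), Ccl4 (2.14, SE 0.13) and Ccl5 (2.58, SE 0.06) were called higher, against 16.5% of all genes. Between 50 and 5 mg/kg, where 18% of all genes were called, Ccl3 (-2.25, SE 0.18) and Ccl4 (-1.75, SE 0.13) fell and Ccl5 (1.11, SE 0.06) rose, and these calls held without any 1 pool (-2.37 to -2.06 for Ccl3, -1.90 to -1.47 for Ccl4).

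Against saline the 50 mg/kg pools of CD8 C0, where 58.4% of all genes were called, had Ccl5 at 30050, 29750 and 27510 CPM against 3275, 3154 and 3507 CPM (3.69, SE 0.06). The smaller differences of Ccl3 (-0.45, SE 0.17) and Ccl4 (0.39, SE 0.13) were called, but depended on settings. Ccl3 was not called with DESeq2 (-0.44) or without saline pool 1 (-0.31) or 50 mg/kg pool 1 (-0.41) or 3 (-0.39). Ccl4 was not called with DESeq2 (0.43), without saline pool 2 (0.24) or with library size scaling, which turned it to -0.17. Ccl1 and Xcl1 had 0 UMIs in C0 at 50 mg/kg against 79 and 64 with saline, at least 26.7-fold and at least 21.6-fold lower when 0 is read as 3 UMIs over the group. With saline Ccl1 was at 27.75 ± 4.77 CPM in C0 and 16.8 ± 3.11 CPM in naive C7. Xcl1 was at 22.1 ± 8.40 CPM in C0 and 14.5 ± 1.04 CPM in naive C7. At 50 mg/kg naive C7 was at 0 CPM for Ccl1 and 3.999 ± 4.525 CPM for Xcl1.

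In CD4 C0 the 50 mg/kg pools had higher Ccl5 (2.80, SE 0.15) and Ccl4 (1.02, SE 0.23) and lower Xcl1 (-3.54, SE 0.57), against 54.8% of all genes called. The Xcl1 change rested on 4 UMIs and was -4.87 without pool 3 and -2.94 without pool 1 of that group, and Ccl4 was not called with DESeq2 (1.04). Ccl4 was at 641, 344 and 310.1 CPM with saline and 226, 712 and 961 CPM at 50 mg/kg, so the ranges overlapped. Ccl1 had 0 UMIs against 301, at least 73.0-fold lower, and Ccl3 differed by -0.08 (-0.52 to 0.37), though it was called lower with library size scaling (-0.53). With the low dose, where 16.2% of all genes were called, Ccl5 (1.09, SE 0.14), Ccl1 (0.78, SE 0.22) and Ccl3 (0.69, SE 0.21) were called higher. The Ccl1 call was lost with library size scaling (0.50), with DESeq2 (0.74), and without 5 mg/kg pool 2 (0.60) or 3 (0.69) or saline pool 1 (0.47). The Ccl3 call was lost with library size scaling (0.41), with DESeq2 (0.57), and without saline pool 2 (0.62) or 3 (0.59), and it turned to -0.13 without pool 3 of the 5 mg/kg group.

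In CD4 C1, the cluster of Cd226lo effector cells, Ccl3 and Ccl4 were called lower at 50 mg/kg, from levels no higher than in the naive cluster. With saline, naive C9 was at 94.3 ± 23.6 CPM for Ccl4, 45.8 ± 21.6 CPM for Ccl3 and 25.5 ± 25.1 CPM for Ccl1, against 81.2 ± 14.9, 44.6 ± 17.5 and 22.7 ± 16.9 CPM in C1. At the high dose C9 was at 5.28 ± 5.05 CPM for Ccl4 and at 0 for Ccl3 and Ccl1, so the naive guide to free RNA was as high as C1 with saline and also low at 50 mg/kg. Ccl4 was at 67.8, 78.5 and 97.3 CPM with saline and 0, 7.12 and 18.9 CPM at 50 mg/kg, and Ccl3 at 64.9, 34.6 and 34.5 CPM and then 3.07, 4.98 and 7.01 CPM. No 50 mg/kg pool reached the saline range. The log2 changes were -3.09 (SE 0.35; -4.32 without pool 3 of the 50 mg/kg group) for Ccl4 and -2.94 (SE 0.36) for Ccl3, with Ccl5 at 0.36 (SE 0.08, not called with DESeq2), against 20.3% of all genes called. Ccl1 and Xcl1 had 0 UMIs at 50 mg/kg, at least 32.7-fold and at least 24.0-fold lower than with saline. In the corresponding CD8 C1 cluster, where 26.9% of all genes were called, Ccl3 (0.26, -0.09 to 0.61) and Ccl4 (0.28, -0.03 to 0.59) were not called, Ccl5 rose (1.35, SE 0.04) and Xcl1 fell (-4.46, SE 0.65). Ccl1 was not tested there, since 0 UMIs were counted at 50 mg/kg against 20 with saline, at least 26.8-fold lower. The saline level of Ccl1 in CD8 C1 (14.7 ± 4.18 CPM) was not above that of naive C7 (16.8 ± 3.11 CPM), which was also at 0 at 50 mg/kg. Whether these within-cluster changes differ between clusters or lineages was not tested.

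The Fcer1g cluster of CD8+ T cells, C6, was the cluster with the next highest mean of Ccl4 after C8 at 50 mg/kg. Its Ccl4 level was 188, 539 and 369 CPM under saline, 336, 509 and 306 CPM at 5 mg/kg and 1212, 680 and 1842 CPM at 50 mg/kg. The 50 mg/kg pools lay above all others. No test was fixed for this cluster.

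**Figure D3:**
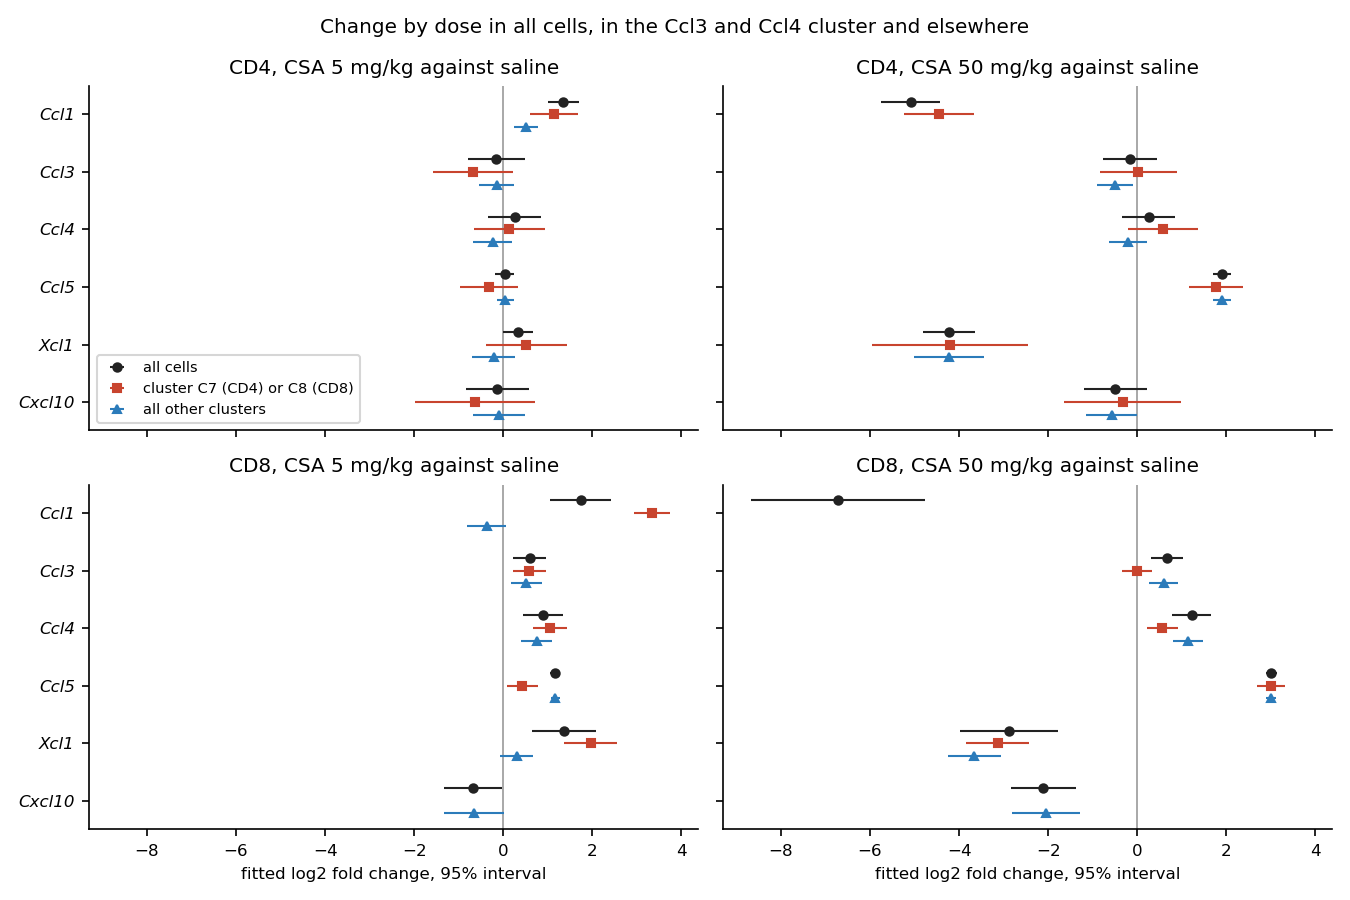
Fitted log2 fold change against saline (x axis) with its 95% interval for each member (y axis), at 5 mg/kg (left) and 50 mg/kg (right), in CD4+ (top) and CD8+ T cells (bottom), for all cells (circles), cluster C7 or C8 (squares) and all other clusters (triangles); a missing symbol was not tested or had 3 or fewer UMIs at 50 mg/kg. CD8+ Ccl1 at 5 mg/kg is 3.34 in C8 and -0.37 in the other clusters, whereas Ccl5 at 50 mg/kg lies near 3.01 in all cells and in C8.

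To set aside changes in the share of each cluster, levels were recomputed with every cluster held at its mean share of UMIs over the 9 pools, on unscaled CPM. In CD8+ T cells at 50 mg/kg the log2 ratio to saline of Ccl5 went from 2.48 to 2.04, that of Ccl4 from 0.69 to 0.24 and that of Ccl3 from 0.12 to -0.11. For Xcl1 it went from -3.46 to -3.85 in CD8+ and from -4.67 to -4.14 in CD4+ T cells. In CD4+ T cells it went from -5.50 to -5.07 for Ccl1 and from 1.47 to 1.53 for Ccl5. At 50 mg/kg the directions of Ccl1, Xcl1 and Ccl5 did not change with cluster shares held fixed, while the CD8+ ratio of Ccl4 shrank, and those of CD8+ Ccl3 and CD4+ Ccl4 (from -0.21 to 0.01) changed sign. At 5 mg/kg CD4+ Xcl1 also changed sign (from -0.08 to 0.18). These ratios carry no test. No minimum number of cells was set for them, and CD8 C4 had 6, 7 and 7 cells in the 50 mg/kg pools. They are not relative to the bulk of genes: without TMM the median gene at 50 mg/kg was at -0.53 in CD8+ and -0.45 in CD4+ T cells. Leaving the Ccl3 and Ccl4 cluster out altogether gave another view. Without C8, the CD8+ difference at 5 mg/kg was -0.37 for Ccl1 and 0.30 for Xcl1, neither of them called. Without C7, CD4+ Ccl1 was still called at 5 mg/kg, at 0.51, and CD4+ Ccl3 was called lower at 50 mg/kg, at -0.50.

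The share of cells with at least 1 UMI was compared after thinning each cell to 2000 UMIs, since depth rose with the dose. For saline, 5 mg/kg and 50 mg/kg, Ccl1 was found in 6.53%, 5.76% and 0.134% of CD4+ T cells and in 3.85%, 2.75% and 0.0284% of CD8+ T cells. Unthinned, the shares were 9.34%, 9.33% and 0.131%, and 7.26%, 5.52% and 0.0566%. The naive cluster C9, with median depths of 1981, 3216 and 3144 UMIs, gave 1.85%, 5.21% and 0%, and CD8 C7, with 3499, 4514 and 4995 UMIs, gave 3.64%, 1.96% and 0%. The higher CD4+ Ccl1 level at 5 mg/kg was thus not matched by a larger share of cells with a UMI, and the 1% of cells with most Ccl1 held 75.5% of the UMIs with saline and 83.5% at 5 mg/kg. In C7 the thinned share was 28.3%, 29.9% and 2.03%.

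For Ccl3 the thinned share was 12.2%, 9.93% and 11.8% in CD8+ T cells against 4.55%, 1.96% and 0% in naive C7, and 9.28%, 5.88% and 2.98% in CD4+ T cells against 7.41%, 2.08% and 0% in naive C9. For Ccl4 it was 19.8%, 15.5% and 20.3% in CD8+ T cells, against 10.9%, 5.88% and 8.08%. Among CD4+ T cells it was 16.8%, 8.38% and 3.35%, against 22.2%, 10.4% and 0%, so the CD4+ share with saline and at 5 mg/kg was below that of the naive cluster and is read as background. Unthinned, Ccl3 was found in 21.1%, 19.8% and 25.2% of CD8+ and 13.6%, 8.69% and 5.29% of CD4+ T cells, and Ccl4 in 32.6%, 27.5% and 36.5% and in 23.1%, 13.7% and 5.61%. CD4+ Ccl4 UMIs were held by few cells, with the top 1% of cells carrying 62.4%, 74.9% and 87.1% of them. In C8 a Ccl4 UMI was found in 77.6%, 72.9% and 71.8% of cells and an Xcl1 UMI in 37.4%, 54.2% and 8.87%.

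Ccl5 was found after thinning in 84.9%, 75.4% and 92.7% of CD8+ T cells and in 77.3%, 49.9% and 60.8% of CD4+ T cells. The naive clusters gave 78.2%, 65.4% and 57.1% (CD8 C7) and 75.9%, 49.0% and 18.1% (CD4 C9). The CD4+ shares with saline and at 5 mg/kg were thus near those of the naive cluster, and that at 50 mg/kg was above it. Single cells held up to 89, 152 and 239 Ccl5 UMIs in CD8 C7 and up to 9, 4 and 84 in CD4 C9. For Ccl5, CD8 C7, and CD4 C9 at 50 mg/kg, are therefore no clean guide to free RNA. Xcl1 was found in 5.31%, 3.76% and 0.568% of CD8+ and 4.61%, 2.54% and 0.302% of CD4+ T cells, against 2.73%, 1.31% and 0% and 3.70%, 1.04% and 0%. Cxcl10 was found in 1.72%, 1.59% and 0.972% of CD4+ and 1.09%, 0.582% and 0.142% of CD8+ T cells. The naive clusters gave 1.85%, 0% and 0% (CD4 C9) and 0%, 0% and 0.621% (CD8 C7), each on at most 1 cell, so the CD4+ share with saline and the CD8+ share at 50 mg/kg were not above background. Unthinned, the Ccl5 shares were 96.4%, 90.8% and 96.2% in CD8+ and 91.2%, 73.4% and 75.1% in CD4+ T cells, and the Xcl1 shares 8.97%, 7.96% and 1.19% and 6.36%, 4.82% and 0.751%.

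Ccl4 UMIs were found in a larger share of the cells with a Ccl3 UMI than of those without. After thinning, Ccl4 was present in 41.6%, 50.8% and 58.0% of CD8+ T cells with a Ccl3 UMI, against 16.8%, 11.6% and 15.2% of those without. For CD4+ T cells the shares were 35.6%, 44.6% and 58.4% against 14.9%, 6.12% and 1.66%. Cells of a pool are not replicates, so these shares carry no test.

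**Figure D4:**
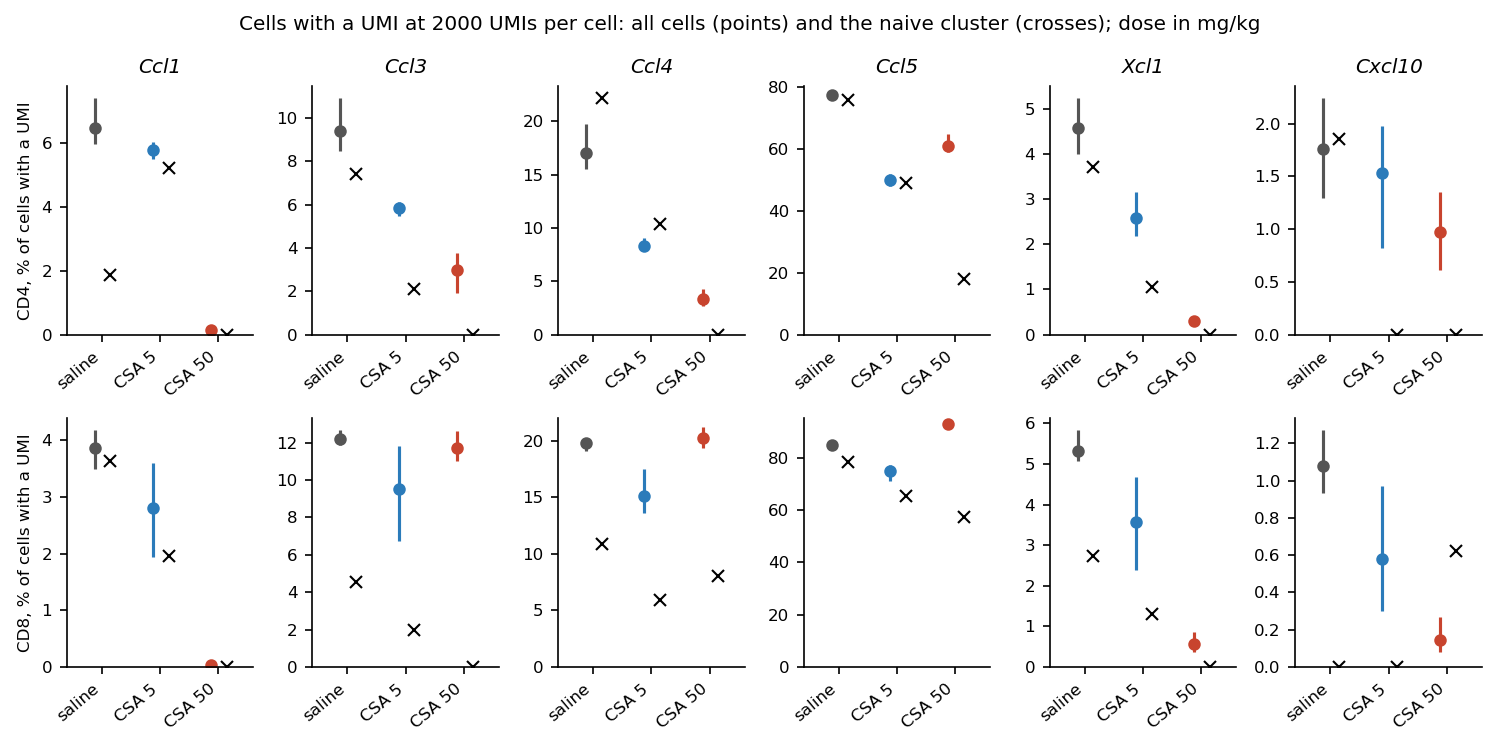
Percent of cells with a UMI of each member after thinning to 2000 UMIs per cell (y axis, scaled for each panel) by dose (x axis), in CD4+ (top) and CD8+ T cells (bottom); points are means of the 3 pools, lines their range, and crosses the naive cluster over all pools. CD4+ Ccl4 lies below the naive cluster with saline (22.2% of 54 cells) and at 5 mg/kg (10.4% of 96 cells), within the counting error of these naive values. CD8+ Ccl5 at 50 mg/kg (92.7%) lies above the naive cluster (57.1%).

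Over the 22 clusters, the genes whose mean log2 level was most like that of each member were ranked by Pearson's r among 6079 genes, as a description over points that share libraries and depth. For Ccl3 it was Ccl4 (r = 0.958), followed by Tars (0.875) and Tnfrsf9 (0.875), and for Ccl4 it was Ccl3, Tars (0.886) and Nr4a2 (0.827). Xcl1 was most like Ifng (0.807), Nr4a2 (0.799) and Wdr61 (0.785). Ccl1 was most like Nufip1 (0.883), Mtap (0.867) and Cct8 (0.859), Ccl5 like Wdr95 (0.914), Itgax (0.869) and Tm6sf1 (0.855), and Cxcl10 like Ifih1 (0.838), Pgd (0.766) and Tspan3 (0.753). Among the members, Ccl3 had an r of 0.745 with Xcl1 and 0.697 with Ccl1, while Ccl5 had -0.320 with Cxcl10.

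Clonal expansion was read from the TCR sequences: cells whose clonotype occurred in 2 or more cells of the same pool and lineage were compared with cells whose clonotype occurred in 1, with the pool as a block. In CD4+ T cells 2 of 6 members were called, against 17.4% of all genes. Ccl3 was at 272 ± 210 CPM in expanded and 83.7 ± 21.7 CPM in single clonotypes (SD, n = 9), a log2 difference of 1.46 (SE 0.20, adjusted p = 6.0e-06, edgeR), and was higher in 8 of 9 pools. Ccl4 was at 565 ± 426 and 227 ± 74.0 CPM, a difference of 1.08 (SE 0.19, adjusted p = 0.00015, edgeR), and was higher in 7 of 9 pools. Expanded levels were uneven over pools. For Ccl3, pool 3 at 50 mg/kg was at 525.5 CPM, against 53.2 and 83.0 CPM in pools 1 and 2. Its highest cell held 636 of the 697 expanded Ccl3 UMIs. Saline pool 1 was at 680.8 CPM, against 118.7 and 163.2 CPM in saline pools 2 and 3. Expanded Ccl4 was at 1462 CPM in pool 3 at 50 mg/kg, against 152 and 181 CPM in pools 1 and 2. The CD4+ differences of Ccl1 (0.52, -0.07 to 1.11), Ccl5 (0.00, -0.11 to 0.12), Xcl1 (0.02, -0.74 to 0.78) and Cxcl10 (-0.39, -1.12 to 0.34) were not called, although in the saline pools alone Xcl1 (-1.11) and Cxcl10 (-1.94) were called lower, and Cxcl10 was also without pool 2 of the 5 mg/kg group (-1.11).

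Among CD8+ T cells 3 of 6 members were called between clonotype classes, against 13.7% of all genes. Ccl5 was lower in expanded clonotypes in 9 of 9 pools, at 1839 ± 170 against 2306 ± 169 CPM with saline, 2737 ± 380 against 3871 ± 191 CPM at 5 mg/kg and 10180 ± 1690 against 12540 ± 1358 CPM at 50 mg/kg. Its log2 difference was -0.40 (SE 0.05, adjusted p = 2.4e-06, edgeR). Ccl3 was called higher (0.45, SE 0.11) but was higher in only 5 of 9 pools, and with the saline pools alone it was not called (0.15). Ccl1 was called higher (1.49, SE 0.42) with 2 of 9 pools showing that direction, both at 5 mg/kg, and was not called without pool 2 (1.05) or pool 3 (0.43) of that group. In the saline pools alone it was called lower (-0.70). Ccl4 (0.06, -0.13 to 0.26), Xcl1 (0.40, -0.21 to 1.02) and Cxcl10 (-0.56, -1.19 to 0.07) were not called in CD8+ T cells, although in the saline pools alone Ccl4 (-0.31) and Xcl1 (-0.78) were called lower.

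**Figure D5:**
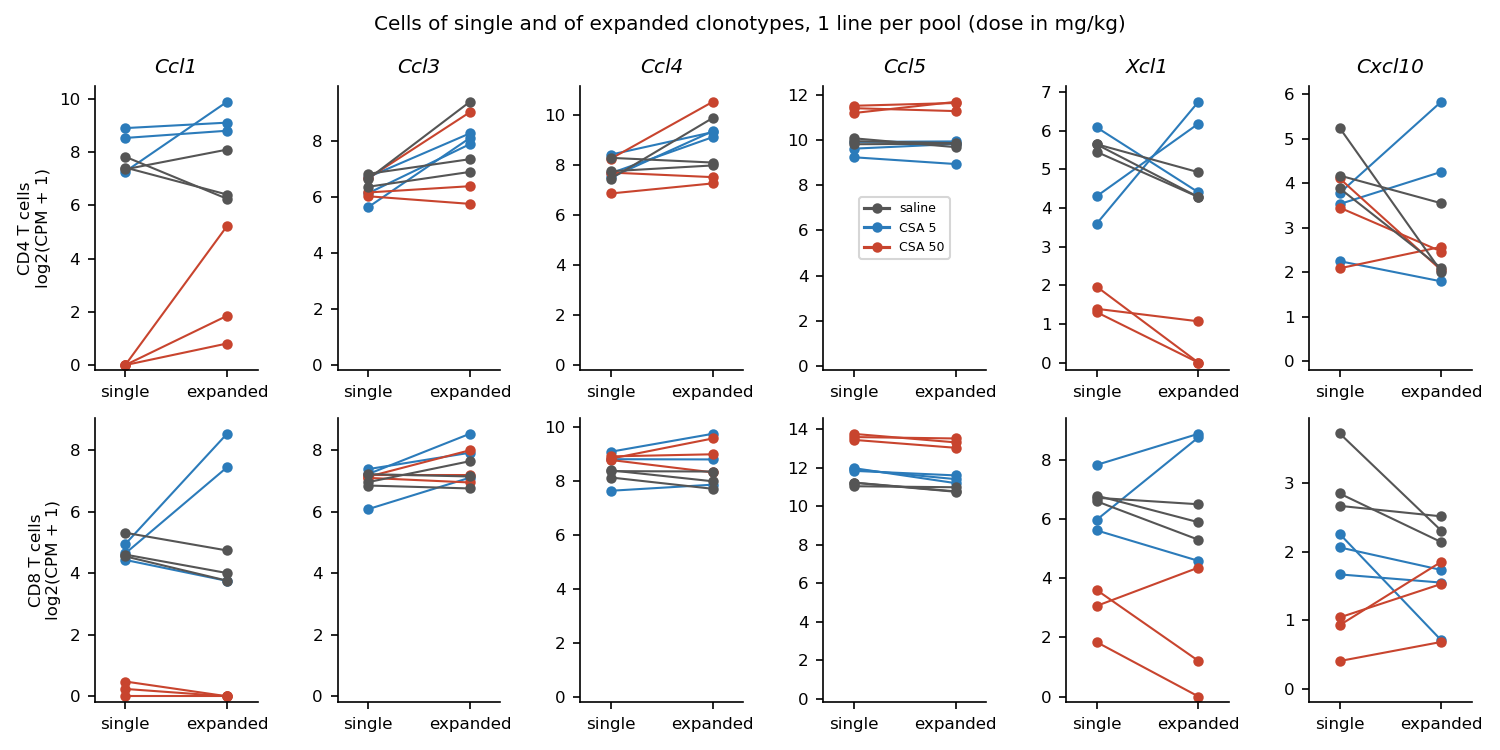
Level of each member as log2(CPM + 1) (y axis, scaled for each panel) in cells of single and of expanded clonotypes (x axis), with 1 line per pool coloured by dose, in CD4+ (top) and CD8+ T cells (bottom). Ccl3 is higher in expanded CD4+ clonotypes in 8 of 9 pools and Ccl5 is lower in expanded CD8+ clonotypes in 9 of 9.

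The members were set beside related genes from listed families. The counts below stand against 51.8% (CD4+) and 60.2% (CD8+) of all genes called at 5 mg/kg and 70.5% and 74% at 50 mg/kg, and nothing is read from a share of called genes near these. Of 32 other chemokine ligands 24 were in the table and 5 passed the filter in each lineage. Under 50 mg/kg CSA 1 rose and 4 fell in both CD4+ and CD8+ T cells, with a median log2 change of -1.69 and -1.22 against -0.01 and 0.00 for all genes. The 1 named in both lineages, Ccl24, an eotaxin, fell by 5.56 (SE 0.39) in CD4+ T cells, from 21.3 ± 1.97 to 0.438 ± 0.121 CPM (SD, n = 3), and by 5.15 (SE 0.33) in CD8+ T cells, after a rise at 5 mg/kg (0.53 and 0.63). Ccl25, the ligand of CCR9, fell by 1.45 (SE 0.17) in CD4+ T cells. Under 5 mg/kg CSA 3 of the 5 rose and 1 fell in each lineage.

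Of 23 chemokine receptors, 15 were tested in CD4+ T cells (5 higher, 6 lower and 4 not called at 50 mg/kg) and 14 in CD8+ T cells (6 higher, 6 lower and 2 not called), with medians of -0.33 and 0.09 and a CD4+ share called close to that of all genes. Cxcr5, the receptor of follicular helper cells, fell by 4.48 (SE 0.18) in CD4+ T cells, and Ccr9 by 1.25 (SE 0.20). Cxcr4 fell by 1.40 (SE 0.16) in CD4+ and 1.14 (SE 0.16) in CD8+ T cells, and Ccr2 rose by 1.11 (SE 0.06) and 1.00 (SE 0.06). In the CD8+ lineage Cx3cr1 fell by 3.34 (SE 0.12), and Ccr10 rose by 4.47 (SE 0.19), from 1.23 ± 0.348 to 27.3 ± 4.79 CPM. With the low dose 3 rose and 4 fell of 15 in CD4+, and 4 rose and 3 fell of 14 in CD8+ T cells.

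Of 20 TCR-induced genes, all 20 were tested in CD4+ T cells, with 2 higher, 15 lower and 3 not called at 50 mg/kg, and 19 in CD8+ T cells, with 3 higher, 14 lower and 2 not called (medians -0.70 and -1.06). Il21 fell by 4.30 (SE 0.18) and Csf2 by 1.46 (SE 0.31) in CD4+ T cells, Nr4a2 fell by 1.72 (SE 0.18) in CD4+ and 2.59 (SE 0.15) in CD8+ T cells, and Tnfrsf4 (-3.92, SE 0.15) and Tnfrsf9 (-1.92, SE 0.06) fell in CD8+ T cells. Nr4a1 went the other way in both lineages (1.53, SE 0.08, and 1.85, SE 0.21). Given 5 mg/kg, the counts were 5 higher, 5 lower and 10 not called, and 2, 6 and 11. Csf2, like Ccl1, was called higher at 5 mg/kg in CD4+ T cells (1.15, SE 0.24).

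The interferon-stimulated genes are the family of Cxcl10. Of 24 tested in CD4+ T cells 4 were higher, 13 lower and 7 not called at 50 mg/kg, and of 23 in CD8+ T cells 6 were higher, 8 lower and 9 not called, with medians of -0.32 and 0.03, and the share called was close to that of all genes in CD4+ and below it in CD8+ T cells. Stat2 fell by 0.77 (SE 0.11) and 0.70 (SE 0.09), and Oas1a by 1.28 (SE 0.14) and 1.31 (SE 0.17), in CD4+ and CD8+ T cells. Rsad2 fell by 1.05 (SE 0.24) in CD4+ T cells and Ifit3 rose by 0.94 (SE 0.20) in CD8+ T cells. Under the low dose 10 were higher, 5 lower and 9 not called in CD4+, and 12, 4 and 7 in CD8+ T cells.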

How the data were processed

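Donor CD4+ and CD8+ T cells were profiled with 10x 5′ single-cell RNA sequencing. The authors deposited raw counts (UMIs) per gene and cell, hashtag counts, clonotypes and cluster labels. The submitters' processing notes name Cell Ranger, Seurat 3.0.0 and mm10, and the version of Cell Ranger is not given in the sources used here. The CD8+ clusters, numbered 1 to 9 in the authors' table, were matched to C0 to C8. No doublet caller was run.

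The 6 members and the related lists were chosen with earlier results of these data known. UMIs were summed per pool and lineage, without TEa cells, and tested with edgeR 4.0.16 (filterByExpr, TMM, quasi-likelihood F test, 9 pools per fit, Benjamini-Hochberg adjustment over all genes) in R 4.3.3. Fits between lineages or clonotype classes had the pool as a block, and fits within clusters used pools with at least 10 cells. Pool levels are TMM-scaled CPM, and cluster, clonotype and fixed-share levels are unscaled CPM. Pools hold separate mice, but each group was 1 capture, so p-values measure the spread between pools of a capture. Intervals of counts and shares cover counting error only.

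All members are named, with up to 4 genes per related list and lineage (called at 50 mg/kg, mean of at least 10 CPM, largest change) and the 3 genes most like each member over clusters (mean of at least 20 CPM). Alternatives were DESeq2 1.42.0, library size scaling, no filter on low counts, other sets of cells or samples, the hashtag number as a block and leaving out each pool. The filter on each cell's strongest hashtag was added after seeing the data. The fits were tested on simulated data. Some genes that these rules name are not reported here.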

Additional observations from a re-analysis of the deposited data

Results flagged for a closer look

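The response to CSA differed between CD8+ and CD4+ T cells for members whose interaction of lineage and dose was called by edgeR with the pool as a block. At 5 mg/kg the log2 change was larger in CD8+ than in CD4+ T cells by 1.12 for Ccl5 and by 0.98 for Xcl1. At 50 mg/kg it was larger by 1.07 for Ccl5, by 1.07 for Ccl4 and by 0.80 for Ccl3, and it was more negative for Cxcl10 (-1.60). The Xcl1 value at 5 mg/kg was not called without pool 2 (0.83) or 3 (0.65) of that dose or saline pool 1 (0.95) or 2 (0.90). The Ccl3 value at 50 mg/kg was not called without saline pool 1 (0.47) or pool 1 (0.57) or 2 (0.68) of that dose.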

How the results depend on the processing

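Over 565 comparisons of a member with another setting, 510 kept their call status, 25 lost the call and 23 gained it. The other 7 turned direction with a call in at least 1 of the fits. Over 1052 with a pool left out, these numbers were 997, 28, 22 and 5. A change of sign where neither fit was called is counted in the 510 and the 997. In CD8+ T cells the setting with TEa cells included repeats the main fit, since no CD8+ cell was marked TEa. Library size scaling turned Ccl5 in CD4+ T cells at 5 mg/kg (-0.33) and Ccl4 in CD8 C0 at 50 mg/kg (-0.17), and leaving out C8 turned CD8+ Ccl1 at 5 mg/kg (-0.37). With saline pools only, the clonotype difference turned for CD4+ Xcl1 (-1.11) and CD8+ Xcl1 (-0.78), Ccl1 (-0.70) and Ccl4 (-0.31), and the number of genes called in CD4+ T cells went from 1722 to 810. Leaving out each pool in turn gave values of both signs for CD4+ Ccl4 at 50 mg/kg (-0.48 to 0.58), Ccl3 between lineages with saline (-0.35 to 0.22), Ccl3 in CD4 C0 at 5 mg/kg (-0.13 to 1.01), and Xcl1 at 5 mg/kg (-1.08 to 1.03) and Ccl3 at 50 mg/kg (-1.04 to 0.54) in CD4 C7. The cause of these shifts was not tested.

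Genes called went from 4443 to 2835 for CD8+ T cells between the doses outside the cycling clusters. Library size scaling gave 2068 in place of 1245 in CD4 C0 and 2394 in place of 1305 in CD8 C0 at 5 mg/kg. DESeq2 gave 741 in place of 1245 in CD4 C0, 765 in place of 1409 in CD4 C7 and 450 in place of 838 in CD8 C8 at 5 mg/kg. At 50 mg/kg it gave 886 in place of 1429 in CD4 C1, 1331 in place of 2084 in CD4 C7, 1211 in place of 1889 in CD8 C1 and 1047 in place of 1893 in CD8 C8. Leaving out each pool gave 167 to 477 genes for the interaction at 5 mg/kg (399 with all pools), 693 to 1464 in CD4 C0 and 477 to 891 in CD8 C8 at 5 mg/kg.

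Hashtag numbers do not pair pools of different groups: same-numbered pools correlated at -0.086 to 0.114 in their deviations from group means. With the number as a replicate block, 5415 and 7433 genes were called in CD4+ and 6464 and 7977 in CD8+ T cells at 5 and 50 mg/kg, and no call of a member changed. Small counts limit the values of Ccl1 at 50 mg/kg (83 UMIs in CD4+ and 4 in CD8+ T cells), CD4+ Xcl1 at 50 mg/kg (31 UMIs) and Cxcl10 (27 to 258 UMIs per group).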

Other observations

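TEa cells, the transgenic CD4+ T cells left out above, numbered 123, 130 and 27 in the saline, low-dose and high-dose groups, and are given over each group with exact 95% Poisson intervals of the count. Ccl5 was at 670 CPM (602 to 743), 457 CPM (411 to 508) and 1710.0 CPM (1545 to 1888) in that order. Ccl4 was at 35.8 CPM (21.6 to 56.0), 174 CPM (146 to 206) and 4.35 CPM (0.110 to 24.3). Its 19, 133 and 1 UMIs came from 19, 15 and 1 cells, and the intervals do not cover such clustering of UMIs in cells. Ccl1 was counted in 8, 25 and 0 UMIs, from 8, 6 and 0 cells. Cxcl10 was counted in 6, 0 and 17 UMIs, the last from 2 cells. With 1 summed value per group these values carry no test.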
